A study of Mus musculus with 6 samples.

Results

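A set of 10 genes of the inflammasome and of caspase control (of 27458 in the deposited table) was compared between RKIP KO and WT bone marrow macrophages. They were chosen by symbol and comprise the sensor genes Nlrp3, Nlrc4, Naip2 and Naip5, the adaptor gene Pycard, the caspase genes Casp1, Casp4 and Casp8, the pore gene Gsdmd and the caspase 8 regulator gene Cflar. RNA of 3 KO and 3 WT libraries was sequenced, from primary mouse bone marrow cells grown as macrophages under macrophage colony-stimulating factor (M-CSF), which both genotypes received. KO mice lack RKIP (Raf kinase inhibitor protein), a cytosolic protein that binds Raf kinases and is encoded by Pebp1. Strain, age, sex and the design of the knockout allele are not given in the sources used here, nor is it stated if each library stands for its own mouse or culture. The p-values therefore speak only to how far these 6 libraries scatter, part of which may be technical. The study asked how RKIP bears on macrophage differentiation.

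An inflammasome is a protein complex that assembles in the cytosol of macrophages when a sensor meets a microbial product or cell damage. NLRP3 responds to damage such as potassium loss, while NAIP proteins bind bacterial proteins and then recruit NLRC4. Both sensors bring caspase 1 together, NLRP3 through the adaptor ASC (encoded by Pycard), and caspase 1 cuts interleukin 1 beta, interleukin 18 and gasdermin D, whose fragment forms pores in the cell membrane. Caspase 4 (caspase 11 in older mouse names) senses bacterial lipopolysaccharide and also cuts gasdermin D. Caspase 8 starts apoptosis at death receptors, and c-FLIP (encoded by Cflar), a relative that lacks the catalytic cysteine, restrains it.

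The promoters of the 3 genes that were higher in KO (below) are shown with that of Casp4, where the NF-kB letters occurred. RefSeq promoters were at hand for 9 of the 10 genes (build GRCm38.p6, 250 bases before to 50 after the start). Each sequence runs 5′ to 3′ on the gene's own strand, and capitals mark matches on either strand to 5 motifs: AP-1 (TGANTCA), C/EBP (TTGCNNAA), PU.1 (GAGGAAGT), NF-kB (GGG, 2 bases of any kind, then TTTCC) and ISRE (GAAA, 2 bases of any kind, then GAAA), none of which overlap here.
Nlrp3, chr11:59541319-59541618, plus strand: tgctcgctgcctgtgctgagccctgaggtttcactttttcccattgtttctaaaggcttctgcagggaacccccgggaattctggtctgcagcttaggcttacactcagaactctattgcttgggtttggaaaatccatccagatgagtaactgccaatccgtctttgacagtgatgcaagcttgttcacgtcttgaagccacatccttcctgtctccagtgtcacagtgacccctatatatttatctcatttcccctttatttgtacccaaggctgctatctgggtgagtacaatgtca
Nlrc4, chr17:74459059-74459358, minus strand: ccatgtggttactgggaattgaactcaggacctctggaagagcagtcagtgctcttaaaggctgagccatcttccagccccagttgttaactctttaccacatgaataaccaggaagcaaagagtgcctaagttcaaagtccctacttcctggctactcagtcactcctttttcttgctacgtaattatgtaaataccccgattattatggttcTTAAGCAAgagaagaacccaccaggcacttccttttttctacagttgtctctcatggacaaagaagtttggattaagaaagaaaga
Cflar, chr1:58711241-58711540, plus strand: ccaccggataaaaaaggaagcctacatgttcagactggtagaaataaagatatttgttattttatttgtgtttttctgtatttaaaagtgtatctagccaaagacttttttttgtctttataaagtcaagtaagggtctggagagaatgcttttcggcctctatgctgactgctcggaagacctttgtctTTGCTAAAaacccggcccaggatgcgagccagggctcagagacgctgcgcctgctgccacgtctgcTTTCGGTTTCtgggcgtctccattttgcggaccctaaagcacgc
Casp4, chr9:5308599-5308898, plus strand: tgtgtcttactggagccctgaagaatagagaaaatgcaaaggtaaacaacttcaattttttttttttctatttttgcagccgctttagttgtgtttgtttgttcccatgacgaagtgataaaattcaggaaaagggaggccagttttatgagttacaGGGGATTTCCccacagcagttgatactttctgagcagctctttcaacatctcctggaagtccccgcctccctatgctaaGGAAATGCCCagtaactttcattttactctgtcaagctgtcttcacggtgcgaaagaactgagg
Casp4 held 2 NF-kB matches, Cflar a C/EBP and an ISRE match, and Nlrc4 a C/EBP match. None of the 5 letter patterns occurred in this Nlrp3 window. Of all 32851 promoter windows in the table, 1.63% held the NF-kB letters, 10.8% the C/EBP letters and 3.44% the ISRE letters. No motif among the 5 occurred in all 3 promoters of genes that were higher in KO, though Nlrc4 and Cflar both held the C/EBP letters. Of the genes not shown, Pycard held a C/EBP and a PU.1 match (PU.1 letters in 3.2% of all windows). The others with a promoter at hand held none. Among these the RefSeq start lay 7128 bases from the deposited gene start for Casp8 and 1013 bases for Naip5. A match of letters is a description and not a binding site.

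In the libraries labelled KO the targeted gene was not detected. Pebp1 had a count of 0 in all 3 KO libraries, against 39.2, 33.2 and 39.0 FPKM (fragments scaled to exon length and to library depth) in WT libraries 1 to 3 (edgeR, adjusted p = 1.48e-10). Total estimated counts ranged from 63607276 to 70059042 in KO and from 53188659 to 55255365 in WT libraries. Across 10 macrophage markers (among them Adgre1, Csf1r and Cd68) the summed level was 19670 to 20000 FPKM in KO and 21910 to 23480 FPKM in WT libraries. All 10 passed the filter of 1 FPKM, and 2 were higher and 6 lower in KO (edgeR). Of 4 tested monocyte markers 1 was higher and 3 were lower in KO. Neutrophil markers were lower too: the 13 genes summed to 16.8 to 17.6 FPKM in KO and 86.6 to 174 FPKM in WT libraries, 8 of the 9 tested were lower in KO, and Ly6g was listed at 0 in every KO library. Stromal and osteoblast markers summed to 701.7 to 812.9 FPKM in KO and 720.6 to 814.2 FPKM in WT libraries, with 1 of 5 tested lower. Erythroid and megakaryocyte markers summed to 139.0 to 145.5 FPKM in KO and 107.4 to 118.4 FPKM in WT, with 1 of 2 tested higher. In that list Hba-a1 and Hbb-bs were at 0 in every KO library but not in every WT library, so its genes did not all follow the sum. The 1 tested dendritic cell marker and the 1 tested B cell marker were higher in KO. Flt3, a dendritic cell marker below the filter, was at 0 in every KO library but not in every WT library. The part of such cells in the levels of the 10 genes was not tested. In bulk RNA, fewer cells of a type and less RNA per cell cannot be told apart.

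Of the 10 genes, Nlrp3, Nlrc4 and Cflar were higher and Gsdmd was lower in KO macrophages, by 1.11-fold to 1.24-fold, while Naip2, Naip5, Pycard, Casp1, Casp4 and Casp8 passed no threshold (edgeR quasi-likelihood test, adjusted p under 0.05 over 11636 genes). All 10 were expressed above the filter of 1 FPKM and entered the test, with 634 to 12744 estimated counts per library. With 3 of 10 higher and 1 of 10 lower, the genes were not far from the whole table, in which 20.3% of tested genes were called higher (2364) and 19.4% lower (2253), or 39.7% in either direction. That split depends on the scaling, with 1913 higher and 2880 lower under upper-quartile scaling, and 2770 higher and 1639 lower in limma on log2(FPKM + 1). Their median log2 fold change (KO over WT) was 0.05, against -0.01 over all tested genes. Each log2 fold change below carries an approximate standard error, worked back from the test statistic. Because edgeR rescales the libraries, these differ somewhat from the ratio of FPKM means.

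**Figure D1:**
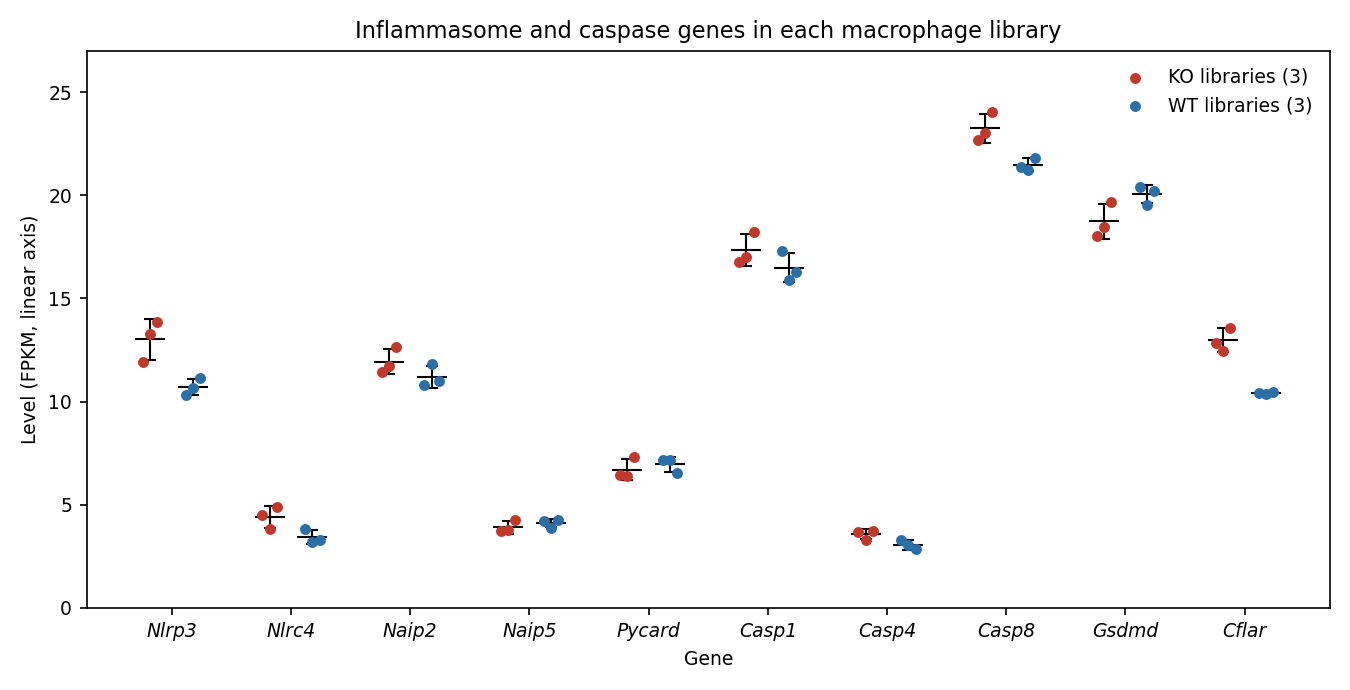
Level in FPKM (vertical axis, linear) of the 10 genes (horizontal axis) in 3 KO (red) and 3 WT (blue) libraries; points are libraries, bars the mean and SD. The KO and WT points of Nlrp3, Nlrc4, Casp4, Casp8 and Cflar stand apart, while those of the other genes overlap.

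Among the sensor genes, Nlrp3 rose. Nlrp3 (chromosome 11, 59541568 to 59566956, plus strand) was at 11.9, 13.3 and 13.8 FPKM in KO libraries 1 to 3 and at 10.3, 10.6 and 11.1 FPKM in WT libraries 1 to 3. Every KO library was above every WT library. The mean was 13.01 ± 0.996 FPKM in KO and 10.7 ± 0.399 FPKM in WT (SD, n = 3 each), a 1.17-fold rise (log2 fold change 0.23 ± 0.06, edgeR, adjusted p = 0.00895). The call was kept in all 19 alternative settings run, with log2 fold changes of 0.18 to 0.28 and adjusted p of 0.00174 to 0.0467.

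Nlrc4, which links NAIP sensors to caspase 1, had the largest change of the 10 genes (without the length offset described further on) and, among KO libraries, the widest spread relative to its mean. Nlrc4 (chromosome 17, 74425438 to 74459142, minus strand) was at 4.51, 3.84 and 4.90 FPKM in KO and at 3.80, 3.18 and 3.31 FPKM in WT libraries. The groups did not overlap, but KO library 2 lay just above WT library 1. The mean was 4.42 ± 0.535 FPKM in KO and 3.43 ± 0.331 FPKM in WT (SD, n = 3 each), a 1.24-fold rise (log2 fold change 0.31 ± 0.10, edgeR, adjusted p = 0.0293). The call ended without KO library 1 or 3 or WT library 2 or 3 (edgeR, adjusted p = 0.0877, 0.122, 0.107 and 0.0880) with upper-quartile scaling (0.0545) and with no filter on low values (0.0818). The tested genes whose log2 CPM followed Nlrc4 most closely over the 6 libraries were Cdc5l, Cybb, Far1, Gm42664 and 2610021A01Rik, with Pearson r from 0.987 to 0.995. These were picked as the highest r among all tested genes, and over 6 libraries such a choice alone can give a high r. Every KO library had a higher total count than every WT library, so genotype and depth differ together over the 6 libraries. Their part in these correlations was not tested.

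The NAIP genes did not pass the threshold. Naip2, whose protein recognises the rod protein of bacterial secretion systems (chromosome 13, 100144063 to 100202092, minus strand), was at 11.4, 11.7 and 12.6 FPKM in KO and 10.8, 11.8 and 11.0 FPKM in WT libraries (log2 fold change 0.04 ± 0.05, edgeR, adjusted p = 0.6001). Naip5, whose protein recognises flagellin (chromosome 13, 100211739 to 100246323, minus strand), was at 3.71, 3.75 and 4.26 FPKM in KO and 4.21, 3.86 and 4.26 FPKM in WT libraries (log2 fold change -0.13 ± 0.08, edgeR, adjusted p = 0.218). Both groups overlapped for each gene. These values are uncertain, because the NAIP genes are near-copies: 84.5% of the longest Naip5 transcript matched Naip6 at 96.9% identity, and 63.7% of the longest Naip2 transcript matched Naip5 at 89.6%. Naip6, not among the 10, was at 2.80 ± 0.0604 FPKM in KO and 2.25 ± 0.255 FPKM in WT (SD, n = 3 each; log2 fold change 0.26 ± 0.09, edgeR, adjusted p = 0.0338; 0.07 and adjusted p = 0.614 with the length and GC offset), and how reads were shared between Naip5 and Naip6 was not tested.

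The adaptor and the inflammatory caspases passed no threshold. Pycard, which encodes ASC (chromosome 7, 127989708 to 127993867, minus strand), was at 6.42, 6.38 and 7.29 FPKM in KO and 7.16, 7.17 and 6.55 FPKM in WT libraries (log2 fold change -0.11 ± 0.07, edgeR, adjusted p = 0.260). Casp1, the caspase that cuts interleukin 1 beta (chromosome 9, 5298508 to 5307290, plus strand), was at 16.8, 17.0 and 18.2 FPKM in KO and 17.3, 15.9 and 16.3 FPKM in WT libraries (log2 fold change 0.02 ± 0.05, edgeR, adjusted p = 0.806). In both genes the genotypes overlapped, and under upper-quartile scaling Casp1 was at -0.0275 and Naip2 at -0.0078 on the log2 scale. Casp4, the lipopolysaccharide sensor (chromosome 9, 5308828 to 5336783, plus strand), lies 1537 bases downstream of Casp1. It was at 3.67, 3.31 and 3.73 FPKM in KO and 3.28, 3.03 and 2.84 FPKM in WT libraries. These groups did not overlap, with KO library 2 just above WT library 1, and the test did not pass (log2 fold change 0.17 ± 0.09, edgeR, adjusted p = 0.168).

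Gsdmd, which encodes the pore protein gasdermin D, was lower in KO by a small margin. Gsdmd (chromosome 15, 75862327 to 75867408, plus strand) was at 18.04, 18.5 and 19.7 FPKM in KO and 20.4, 19.5 and 20.2 FPKM in WT libraries. KO library 3 lay above WT library 2, so the genotypes overlapped. The mean was 18.7 ± 0.842 FPKM in KO and 20.05 ± 0.447 FPKM in WT (SD, n = 3 each), a 1.11-fold fall (log2 fold change -0.15 ± 0.05, edgeR, adjusted p = 0.0317). This call ended without KO library 1 or 2 or WT library 1 or 3 (edgeR, adjusted p = 0.112, 0.0815, 0.0733 and 0.0865) and in limma on log2(FPKM + 1) (0.129) and with no filter on low values (0.101). The neutrophil markers fell in the same direction, and their part in this difference was not tested.

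In the death receptor branch Cflar rose and Casp8 did not pass, both of which changed with the length offset described further on. Cflar (chromosome 1, 58711508 to 58758884, plus strand) was at 12.8, 12.4 and 13.6 FPKM in KO and at 10.4, 10.4 and 10.5 FPKM in WT libraries. The WT libraries were nearly identical and every KO library was higher. The mean was 12.96 ± 0.580 FPKM in KO and 10.4 ± 0.0545 FPKM in WT (SD, n = 3 each), a 1.20-fold rise (log2 fold change 0.26 ± 0.04, edgeR, adjusted p = 0.000774). Cflar has a processed pseudogene, Gm9845, that matches 9.10% of its longest transcript at 100% identity, so a small share of its reads is uncertain. Casp8 (chromosome 1, 58795374 to 58847503, plus strand), whose gene begins 36489 bases past the end of Cflar, was at 22.7, 23.0 and 24.03 FPKM in KO and 21.4, 21.2 and 21.8 FPKM in WT libraries. These groups did not overlap either, but the scaled difference did not pass (log2 fold change 0.06 ± 0.04, edgeR, adjusted p = 0.293). A pseudogene, Gm20257, matches 34.9% of the longest Casp8 transcript at 89.0% identity, so part of the Casp8 count may be uncertain. How reads were shared between Casp8 and Gm20257 was not tested. In FPKM the groups stood apart, KO higher, for 5 of the 10 genes, against 32.4% of all tested genes.

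Transcript length moved with the fold changes. Over 11627 tested genes with a known length, log2 fold change and log2 length of the longest transcript correlated at r = 0.36 across genes, and over the 10 genes at r = 0.32 (genes share the same 6 libraries and are not independent). When an offset removed the trend of every library with transcript length and GC content, Nlrp3 kept its rise at 0.22 (edgeR, adjusted p = 0.00745). Cflar, whose longest transcript of 6572 bases was the longest of the 10, was at 0.07 (adjusted p = 0.122), Nlrc4 at 0.23 (adjusted p = 0.0909; 0.29 and 0.0346 with the length of all exons in the offset), and Gsdmd, with 1792 bases, at 0.00 (-0.15 without the offset; adjusted p = 0.977). Casp8 at 0.10 (edgeR, adjusted p = 0.0448) passed as higher and Naip5 at -0.24 (adjusted p = 0.0237) as lower. With the length of all exons in the offset Casp8 passed too (0.11, edgeR, adjusted p = 0.0318) and Naip5 did not (-0.16, adjusted p = 0.0983). With the offset 2 of the 10 genes were higher and 1 lower, against 17.0% and 14.6% of all genes.

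**Figure D2:**
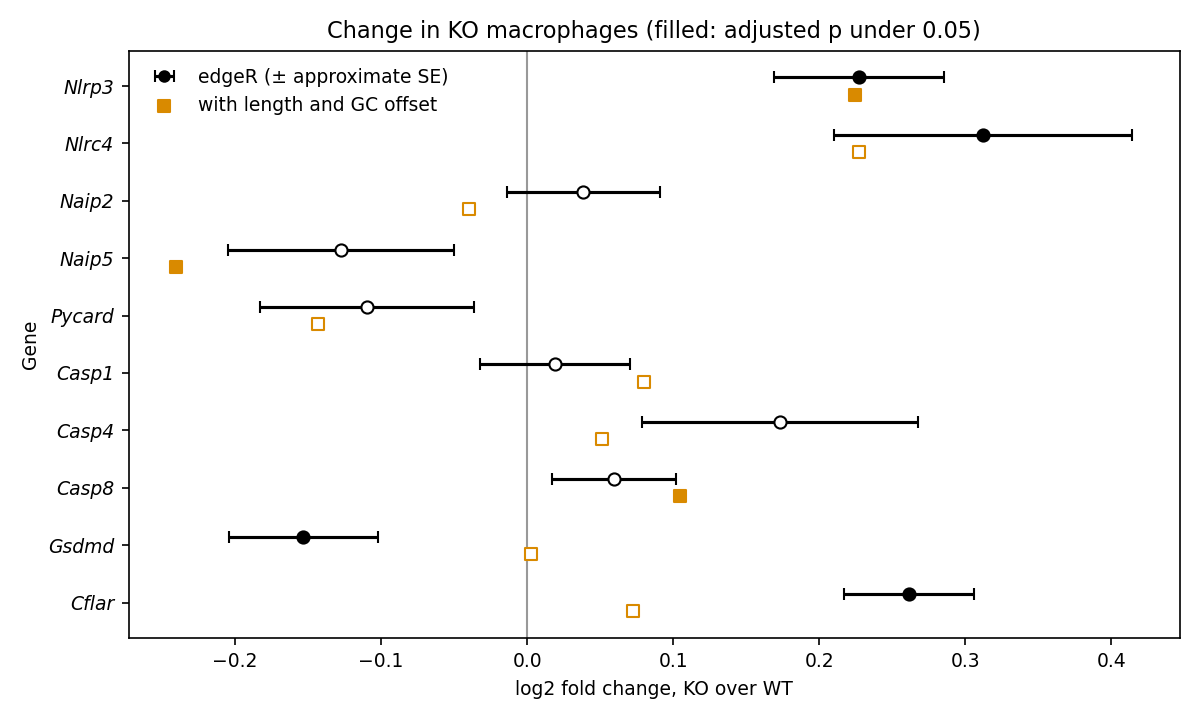
Log2 fold change, KO over WT (horizontal axis), of the 10 genes (vertical axis) from edgeR (black circles, bars the approximate SE) and with the length and GC offset (orange squares); filled symbols have an adjusted p under 0.05. Nlrp3 is filled in both, at 0.23 and 0.22, while Cflar goes to 0.07 and Gsdmd to 0.00 with the offset.

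Ratios between genes of the same library, which do not depend on its scaling but can depend on transcript length, were compared for 4 pairs, with an exact permutation test (two-sided) that cannot go below p = 0.1 with 3 against 3 libraries. The ratio of Cflar to Casp8 was 0.566, 0.541 and 0.566 in KO and 0.488, 0.487 and 0.480 in WT libraries. Every KO library had more Cflar per Casp8 than every WT library. The log2 ratio was -0.84 ± 0.04 in KO and -1.04 ± 0.01 in WT (SD, n = 3 each), a difference of 0.20, with pairs of libraries differing by 0.15 to 0.24 (exact permutation p = 0.1, the smallest possible). With the length and GC offset the difference between the fold changes of Cflar and Casp8 was -0.03.

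The ratio of Casp4 to Casp1 was 0.219, 0.194 and 0.205 in KO and 0.190, 0.191 and 0.174 in WT libraries, again without overlap (log2 difference 0.16, pairs from 0.03 to 0.33, exact permutation p = 0.1, the smallest possible). With the offset that difference was -0.03 too. Naip2 to Naip5 was 3.08, 3.12 and 2.96 in KO and 2.56, 3.06 and 2.58 in WT libraries. WT library 2 fell within the KO values (log2 difference 0.17, pairs from -0.05 to 0.29, exact permutation p = 0.2). Nlrc4 to Nlrp3 was 0.379, 0.290 and 0.354 in KO and 0.368, 0.298 and 0.297 in WT libraries, which overlapped (log2 difference 0.08, pairs from -0.35 to 0.35, exact permutation p = 0.8). Adjusted over the 4 pairs by the Benjamini-Hochberg method, the p-values were 0.2, 0.2, 0.267 and 0.8 in the order given (exact permutation tests).

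**Figure D3:**
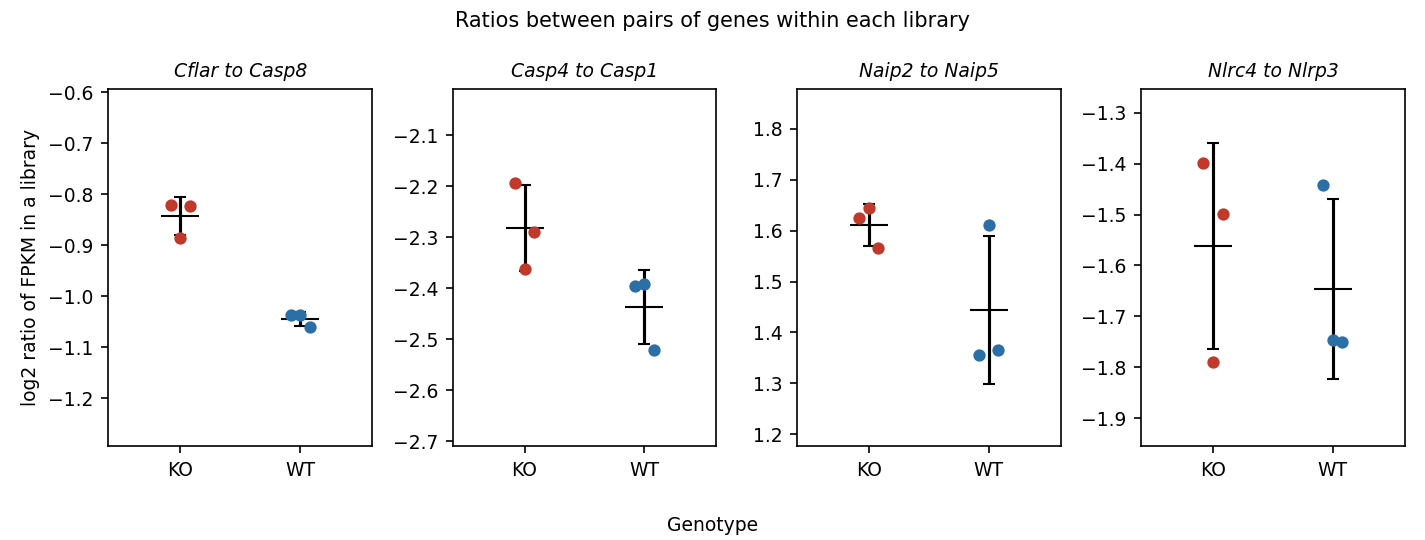
Log2 ratio of FPKM (vertical axis, the same span in each panel) of 4 pairs of genes within each of 3 KO (red) and 3 WT (blue) libraries; points are libraries, bars the mean and SD. Cflar to Casp8 and Casp4 to Casp1 have every KO point above every WT point, while Naip2 to Naip5 and Nlrc4 to Nlrp3 overlap.

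By level per length of exon (FPKM), Casp8 came first and Casp4 last in both genotypes. In KO macrophages the order of mean FPKM was Casp8 (23.2), Gsdmd (18.7), Casp1 (17.3), Nlrp3 (13.01), Cflar (12.96), Naip2 (11.9), Pycard (6.70), Nlrc4 (4.42), Naip5 (3.91) and Casp4 (3.57). The ranges of Gsdmd and Casp1, of Nlrp3, Cflar and Naip2, and of Nlrc4, Naip5 and Casp4 overlapped between neighbours. In WT macrophages Naip2 (11.2) stood before Nlrp3 (10.7) and Cflar (10.4), with overlap between neighbours, and Naip5 (4.11) before Nlrc4 (3.43) without. Casp8, Casp1 and Gsdmd were above the adaptor gene Pycard and Casp4 was below it by FPKM, in both genotypes.

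The order depends on what counts as length. The deposited FPKM divide by the summed length of all exons of a gene: the ratio of count to FPKM gave that length to within 1% for 98.4% of 10486 genes. For Cflar it was 12666 bases against 6572 in the longest transcript and for Casp4 3723 against 1901. For Casp1 the ratio gave 3135, but its exons in GENCODE M21 sum to 1497, the length of its longest transcript there. The gene models of Casp1 thus differ, and dividing by 1497 bases mixes them. Per kilobase of the longest transcript, Casp1 came first (36.3 in KO and 34.5 in WT), a rank that rests on this mismatch. Cflar (25.0 in KO and 20.1 in WT) moved next to Casp8 (26.0 in KO and 24.03 in WT). On that scale Casp4 (6.99) stood above Pycard (6.69) in KO, with overlapping ranges, and below it in WT (5.97 against 6.96). Fold changes without the offset are not touched by this choice, while those with the offset are, as given above for Nlrc4 and Naip5.

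The 10 genes had a common high library. All 10 were highest in KO library 3 among the KO libraries by FPKM, and 9 of 10 by log2 CPM, whereas 41.3% of tested genes by FPKM and 37% by log2 CPM were highest there. Among WT libraries they were spread, with 4 genes highest in library 1, 2 in library 2 and 4 in library 3. Without KO library 3 the log2 fold change of Nlrp3 was 0.18 (edgeR, adjusted p = 0.0467).

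The wider set of inflammasome sensors and factors that license them held 15 tested genes beside the sensors above. Of these 5 rose and 1 fell (median log2 fold change 0.10), against 20.3% and 19.4% of all tested genes. Nek7, a kinase that NLRP3 needs to assemble, was at 17.4, 17.4 and 19.3 FPKM in KO and 14.5, 13.05 and 13.02 FPKM in WT libraries. It rose 1.29-fold (edgeR, adjusted p = 0.000367), and with the length and GC offset its log2 fold change was 0.15 in place of 0.36 (adjusted p = 0.0162). P2rx7, the ATP-gated channel whose opening lets potassium out, was at 18.4, 19.0 and 18.9 FPKM in KO and 15.1, 14.9 and 15.2 FPKM in WT libraries, a 1.20-fold rise (edgeR, adjusted p = 0.000270). Txnip, a thioredoxin-binding protein reported to bind NLRP3, rose 1.22-fold, to 186.7 ± 2.44 FPKM in KO against 147.5 ± 4.20 FPKM in WT (SD, n = 3 each; edgeR, adjusted p = 0.000176). For each of these the KO libraries were above the WT libraries.

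The remaining called sensor genes were picked out after their values were seen. They were Nlrp1b, a sensor of proteases, at 5.50 ± 0.471 FPKM in KO and 4.10 ± 0.09995 FPKM in WT (1.29-fold higher, edgeR, adjusted p = 0.00153), Naip6 (above), and Nlrx1, a mitochondrial member of the family, at 2.89 ± 0.0571 FPKM in KO and 3.23 ± 0.119 FPKM in WT (1.16-fold lower, edgeR, adjusted p = 0.0343). With the length and GC offset Nlrp1b kept its call (0.33, edgeR, adjusted p = 0.00241) and Nlrx1 did not (-0.17, adjusted p = 0.104). Nlrc5, picked out in the same way, was not called without the offset (edgeR, adjusted p = 0.147). It passed as lower with the length and GC offset (-0.28, edgeR, adjusted p = 0.0323). With the length of all exons in the offset, 0 genes of the sensor list were called lower. Aim2, the DNA sensor, stood at 5.83 FPKM in KO and 5.46 FPKM in WT and did not pass (edgeR, adjusted p = 0.708).

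Of the effector and cytokine genes of pyroptosis beside Pycard, Casp1, Casp4 and Gsdmd, 1 of 9 tested rose and 1 fell (median log2 fold change -0.04), against 20.3% and 19.4% of all tested genes. Il1rn, the interleukin 1 receptor antagonist, was at 67.0, 66.5 and 69.2 FPKM in KO and 56.6, 49.6 and 53.1 FPKM in WT libraries. All KO libraries were higher, a 1.23-fold rise (edgeR, adjusted p = 0.000850). Gbp2, a guanylate-binding protein that coats bacteria, fell 1.16-fold, with 12.7 ± 0.789 FPKM in KO and 14.1 ± 1.14 FPKM in WT (SD, n = 3 each; edgeR, adjusted p = 0.0407). Its groups overlapped, and its call ended without KO library 1 or 3 or WT library 2 or 3 (edgeR, adjusted p from 0.102 to 0.154) and with the length and GC offset (0.138). Il18bp, which binds interleukin 18, stood at 4.21 ± 0.342 FPKM in KO and 3.50 ± 0.297 FPKM in WT (edgeR, adjusted p = 0.115), and it passed as higher with the length and GC offset (0.29, adjusted p = 0.0426).

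**Figure D4:**
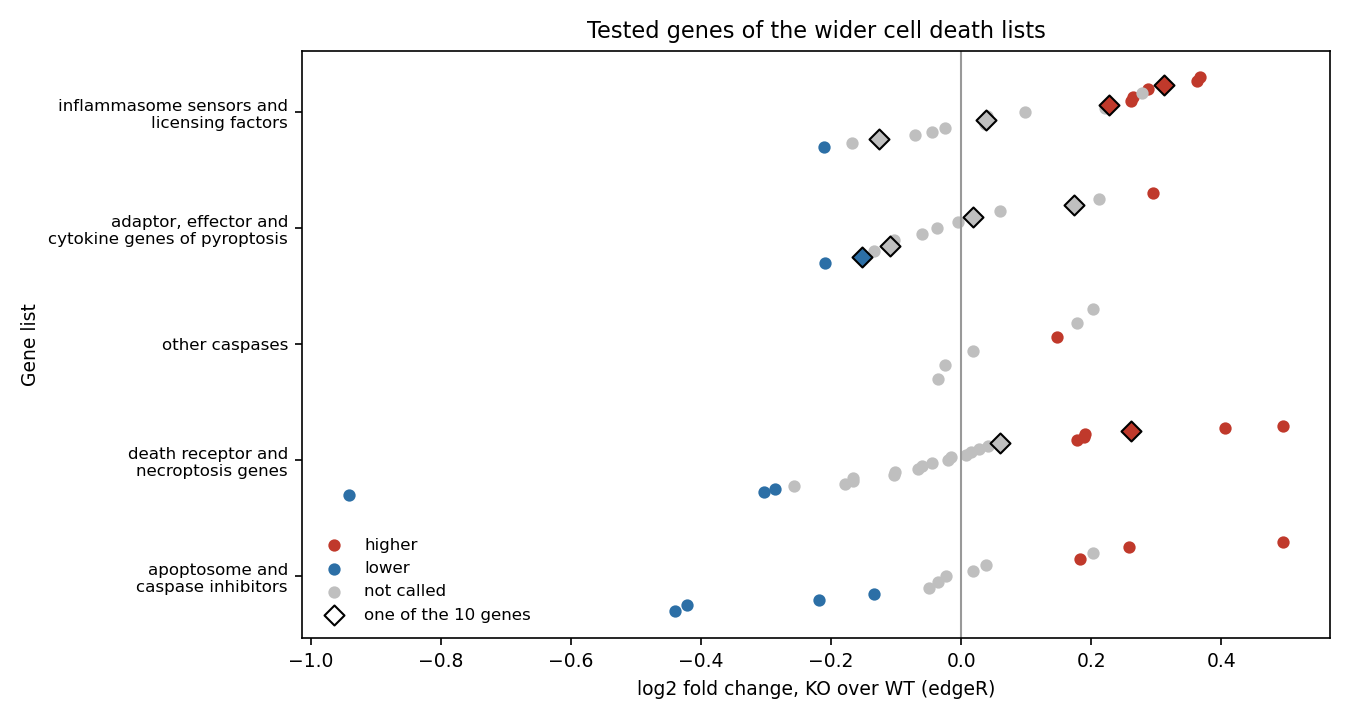
Log2 fold change, KO over WT (horizontal axis, edgeR), of the tested genes of 5 lists (vertical axis, genes in order of fold change within a list); red and blue mark genes with an adjusted p under 0.05, diamonds the 10 genes. Xiap is drawn in both lists that hold it, and so are other shared genes. Xiap at 0.49 and Zbp1 at -0.94 are coloured points of the death receptor list.

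Of the other caspase genes, 1 of 6 tested rose and 0 fell (median log2 fold change 0.08), against 20.3% and 19.4% of all tested genes. Casp2, a nuclear initiator caspase, was at 6.12, 6.42 and 6.29 FPKM in KO and 5.54, 5.43 and 5.40 FPKM in WT libraries, a 1.11-fold rise (edgeR, adjusted p = 0.0347). That call ended with upper-quartile scaling (0.130) and without any of the KO libraries or WT library 2 or 3 (edgeR, adjusted p from 0.0676 to 0.0940). Casp6, an executioner caspase, stood at 4.14 ± 0.0977 FPKM in KO and 3.53 ± 0.395 FPKM in WT (SD, n = 3 each; edgeR, adjusted p = 0.110). It passed as higher without WT library 1 (edgeR, adjusted p = 0.0220).

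Death receptor and necroptosis genes went both ways: beside Casp8 and Cflar, 5 of 23 tested rose and 3 fell (median log2 fold change -0.05), against 20.3% and 19.4% of all tested genes. Under upper-quartile scaling 8 fell. Xiap, which binds and blocks executioner caspases, had the largest rise. It was at 12.7, 12.3 and 13.8 FPKM in KO and 8.94, 8.87 and 8.70 FPKM in WT libraries, 1.41-fold higher (edgeR, adjusted p = 1.7e-05), and with the length and GC offset its log2 fold change was 0.16 in place of 0.49 (adjusted p = 0.00312). Cyld, a deubiquitinase of death receptor complexes, rose 1.32-fold, and its log2 fold change of 0.41 was 0.17 with the offset (edgeR, adjusted p = 0.00755). Zbp1, a nucleic acid sensor that engages RIPK3, was at 2.46, 2.15 and 2.00 FPKM in KO and 4.72, 3.32 and 4.21 FPKM in WT libraries. It fell 1.92-fold (edgeR, adjusted p = 0.000264). The adaptor gene Fadd and the kinase gene Ripk3, named after their values were seen, fell 1.22-fold and 1.23-fold (edgeR, adjusted p = 0.0182 and 0.0152), and Ripk1 rose 1.14-fold (adjusted p = 0.00466). With the offset Fadd at -0.28 kept its call and Ripk3 at -0.17 and Ripk1 at 0.01 did not (adjusted p = 0.0238, 0.161 and 0.818).

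Of the apoptosome and caspase inhibitor genes, 3 of 13 rose and 4 fell (median log2 fold change -0.02), against 20.3% and 19.4% of all tested genes. Xiap (above) is in this list too. Bax, a pore protein of mitochondria, was at 48.4, 49.3 and 49.2 FPKM in KO and 58.0, 52.5 and 54.2 FPKM in WT libraries, 1.16-fold lower (edgeR, adjusted p = 0.00272), and its log2 fold change of -0.22 was -0.12 with the length and GC offset (adjusted p = 0.0242). Birc5, a chromosomal passenger protein of dividing cells, was at 3.33, 3.41 and 3.94 FPKM in KO and 4.45, 4.63 and 4.69 FPKM in WT libraries, 1.34-fold lower (edgeR, adjusted p = 0.00269). In both genes every KO library was below every WT library. Over all 5 lists without the 10 genes, 14 of 62 tested genes rose and 9 fell, against 20.3% and 19.4% of all tested genes.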

How the data were processed

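Messenger RNA of 6 libraries (3 KO, 3 WT), selected with oligo(dT), was sequenced after a strand-marking (dUTP) preparation, per the labels' protocols; whether counting used strand, and the genome build, are not given in the sources used here. Cutadapt 1.9, HISAT2 2.0.4 and StringTie 1.3.4d are named in the submitters' processing notes. The authors deposited FPKM and estimated counts per gene, with no unnamed rows. The deposited estimated counts are whole numbers in which 4 occurs 5769 times, 3 occurs 3204 times and 5 occurs 2041 times, so that about 4 counts stand for a fragment; counts divided by 4 were an alternative.

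Counts were tested with edgeR 4.0.16 (quasi-likelihood, TMM scaling, R 4.3.3) over the 11636 genes averaging 1 FPKM or more, with Benjamini-Hochberg adjustment and a threshold of 0.05. Alternatives were DESeq2 1.42.0, limma 3.58.1 on log2(FPKM + 1) and log2(FPKM + 0.1), other scalings and filters, a replicate block, a loess offset on transcript length and GC content, and leaving out each library. Lengths came from GENCODE M21 (27382 gene IDs matched; Casp1 differs in coordinates from the deposited table) and near-copies from BLAST 2.17.0. Coordinates of genes are those of the deposited table. Of each gene list the 3 tested genes with the smallest p that are not among the 10 were named, with 5 genes most like the gene of largest change; others are marked as picked after their values were seen. A gene that this rule names is not reported here. The 10 genes and all lists were chosen with earlier results of these data known. Library totals ranged from 53188659 to 70059042 estimated counts.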

Additional observations from a re-analysis of the deposited data

How the results depend on the processing

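Of the 10 genes, 2 or 3 were called higher under every alternative run, but the genes changed. Only Nlrp3 was called in all of them. With the length and GC offset Nlrp3 and Casp8 were higher, and the 1 lower gene was Naip5 in place of Gsdmd. With the length of all exons in the offset Nlrp3, Nlrc4 and Casp8 were higher. The number called lower was 1 in the reported fit and 0 in limma with either pseudocount, with no filter on low values and with an offset on the length of all exons (chosen after seeing the data), and ranged from 0 to 1 when a library was left out. Among listed genes other than the 10, 9 were called lower, against 5 in limma with either pseudocount, 5 with no filter, 15 with upper-quartile scaling, 4 with the all-exon offset, and 5 to 9 with a library left out. The cause was not tested. Log2 fold changes changed sign for Naip2 (-0.0078 with upper-quartile scaling, -0.0401 with the length and GC offset, -0.0398 with that offset and the replicate block), Casp1 (-0.0275 with upper-quartile scaling, -0.0265 with the all-exon offset, -0.0138 without KO library 3 and -0.0085 without WT library 2, in a range up to 0.0533 with a library left out), Casp4 (-0.0030 with the all-exon offset) and Gsdmd (0.0025 with the length and GC offset, 0.0013 with the block added, 0.0014 with the all-exon offset). The 4 ratios kept their direction when a library was left out and on counts. From fold changes with the length and GC offset (also chosen after seeing the data for the ratios), the difference was -0.0322 for Cflar to Casp8 and -0.0291 for Casp4 to Casp1, and with the all-exon offset -0.0569 and 0.0235; Naip2 to Naip5 and Nlrc4 to Nlrp3 stayed positive. A filter of 5 FPKM leaves out Nlrc4, Naip5 and Casp4.

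Same-numbered KO and WT libraries deviated together with r = 0.023, 0.187 and -0.038. Not every library correlated best with its own number, though 0.187 was the highest r of any KO and WT library. This cannot show whether the numbers pair the samples, because paired libraries can share little deviation. With the replicate block, 2407 genes were higher and 2294 lower, 3 and 1 of the 10 genes, and Casp2 missed the threshold (edgeR, adjusted p = 0.0552). No paired fit was made for the ratios.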

Other observations

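Of the listed genes, 11 lay below the filter of 1 FPKM. Il1b, which encodes interleukin 1 beta, was listed at 0, 0 and 0.0830 FPKM in KO libraries (0, 0 and 12 estimated counts) and at 0.311, 0.226 and 0.497 FPKM in WT libraries (39, 27 and 58 estimated counts). In the edgeR fit with no filter its adjusted p was 0.0750. Nlrp12 had a count of 0 in every KO library and 6, 21 and 16 estimated counts in WT libraries (edgeR with no filter, adjusted p = 0.0230). At about 4 counts to a fragment, the values of Il1b and Nlrp12 rest on few fragments. The fit with no filter used undivided counts, so its adjusted p for them is uncertain. Gsdme was at 0.623, 0.657 and 0.562 FPKM in KO and 0.466, 0.400 and 0.535 FPKM in WT libraries, without overlap (edgeR with no filter, adjusted p = 0.132). These genes were picked out after their values were seen. Il1b and Nlrp12 moved in the same direction as the neutrophil markers, whose part in this was not tested.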
